A study of Mus musculus with 2 samples.

Results

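Heme and iron handling was followed through 10 genes in single-cell RNA sequencing of mouse gastrocnemius muscle: Cd163, Tfrc and Trf (uptake and transport), Hmox1 and Blvrb (heme breakdown), Fth1 and Ftl1 (storage), Slc40a1 and Cp (export) and Slc11a1 (iron transport out of the phagosome). They were taken by name, and all 10 were among the 19169 genes of the deposited table. The muscle had been injured with cardiotoxin (CTX), a snake toxin that kills myofibers and leaves the stem cells able to rebuild them, and was taken on day 14. The animals were male C57BL/6J mice, either wild type (WT) or with the pyroptosis gene Gsdme deleted in every cell (KO). There were 5 mice per genotype, and whether they were pooled is not stated. There was 1 library per genotype and no uninjured muscle.

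On mouse build GRCm38 the genes of uptake lie on chr6:124304656-124330527 (Cd163, plus strand), chr16:32608920-32632794 (Tfrc, plus) and chr9:103204001-103230444 (Trf, minus). Hmox1 lies on chr8:75093621-75100589 (plus), Blvrb on chr7:27447978-27466144 (plus), Fth1 on chr19:9980598-9985098 (plus) and Ftl1 on chr7:45457944-45459884 (minus). Slc40a1 lies on chr1:45908068-45926523 (minus), Slc11a1 on chr1:74375195-74386062 (plus) and Cp on chr3:19957054-20009145 (plus).

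With 1 library per genotype there is no replicate, so no p-value is given. Each interval is an exact 95% interval that covers counting error only, Poisson for a level and binomial for a ratio. Levels are CPM: all unique molecular identifiers (UMIs) of a gene within a group of cells, scaled to 1000000 UMIs of that group. Levels of different genes were not compared, apart from the number of Fth1 UMIs per Ftl1 UMI. Ratios are log2 of KO over WT unless named otherwise, and a gene counted as past the threshold at 1.5-fold, or 0.585 on the log2 scale.

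The library labelled WT held 6354 cells with a median of 5740 UMIs and the library labelled KO 7078 cells with a median of 5962.5. The libraries shared 4 cell barcodes. RNA of the deleted gene, Gsdme, was at 5.027 CPM in WT and 4.653 in KO, a log2 ratio of -0.11 (-0.38 to 0.16). The deposited RNA therefore did not tell the genotypes apart at this gene, and WT and KO stand below for the libraries so labelled. Cells were clustered without the 10 genes and named by their markers, as FAP-like (fibro-adipogenic progenitors, the connective-tissue cells of muscle), MuSC-like (muscle stem cells) and so on. Among 12 groups with at least 50 cells in each library, macrophage-like cells numbered 851 in WT and 1030 in KO. One of the 12 expressed both S100a9, a neutrophil marker, and Lyz1, a monocyte marker, and was left unnamed. The pericyte-like group also carried endothelial markers. Cells with the markers of mature muscle numbered 33 in WT and 63 in KO, too few in WT to be compared.

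Injured muscle releases heme from myoglobin, and blood that leaks into it releases heme from hemoglobin. Macrophages take up hemoglobin bound to haptoglobin through CD163. HMOX1 opens the heme ring into biliverdin, iron and carbon monoxide, and BLVRB is a biliverdin and flavin reductase. The freed iron is stored in ferritin, whose heavy chain (Fth1) oxidises it and whose light chain (Ftl1) helps form the mineral core, or leaves the cell through ferroportin (Slc40a1), with the help of ferroxidases such as ceruloplasmin (Cp). Transferrin (Trf) carries iron between cells and enters them through its receptor, encoded by Tfrc. SLC11A1, found in phagosomes of macrophages, moves iron out of that compartment.

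4 of the 10 genes carry iron-responsive elements, hairpins in the mRNA that iron regulatory proteins bind when iron is scarce. In a 5′ untranslated region (UTR) that binding blocks translation, and in the 3′ UTR of Tfrc it protects the mRNA from decay. They are shown because they separate the genes whose protein can change with no change in the RNA counted here from the one whose RNA itself is protected. Sequences are from GENCODE transcripts on mouse build GRCm38, 5′ to 3′ on the strand of the gene, written as DNA with the loop in capitals. The 3 elements of 5′ UTRs lie on chr19:9982732-9982761 (Fth1, plus strand, exon 2 of the transcript ENSMUST00000235196.1), chr7:45459778-45459807 (Ftl1, minus strand, exon 1) and chr1:45925464-45925493 (Slc40a1, minus strand, exon 1):
Fth1: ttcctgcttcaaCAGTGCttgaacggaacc
Ftl1: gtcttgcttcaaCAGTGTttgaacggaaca
Slc40a1: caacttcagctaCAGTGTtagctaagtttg
In the 3′ UTR of Tfrc the search described below found 4 elements, all in the last exon, exon 19. They lie on the plus strand at chr16:32631219-32631248, chr16:32631598-32631627, chr16:32631663-32631692 and chr16:32631710-32631739:
Tfrc element 1: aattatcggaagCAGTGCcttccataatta
Tfrc element 2: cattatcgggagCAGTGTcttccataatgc
Tfrc element 3: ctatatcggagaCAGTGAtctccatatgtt
Tfrc element 4: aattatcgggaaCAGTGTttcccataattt
The search asked for the loop CAGTGN, a C placed 6 bases before it and 5 base pairs between them and across the loop, with G opposite T allowed. Such a stretch was found in the 5′ UTR of 31 of 20899 genes (0.148%) and in the 3′ UTR of 129 of 21685 genes (0.595%). The elements of Fth1 and Ftl1 were identical at 26 of 30 bases, and each matched the element of Slc40a1 at 13 of 30. A match describes the letters only, and an element that breaks the rule would be missed.

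Macrophage-like cells held the highest level of 7 of the 10 genes in both libraries: Cd163, Hmox1, Blvrb, Fth1, Ftl1, Tfrc and Trf. Cp was highest in lymphatic endothelial-like cells in both. Slc40a1 was highest in macrophage-like cells in WT and in tendon-like cells in KO, and Slc11a1 in macrophage-like cells in WT and in the cluster with S100a9 and Lyz1 in KO. Macrophage-like cells supplied 10.4% of all UMIs in WT and 11.3% in KO, against 81.3% and 77.8% of the Cd163 UMIs, 75.4% and 73.7% of those of Slc11a1, and 69.9% and 69% of those of Trf.

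**Figure D1:**
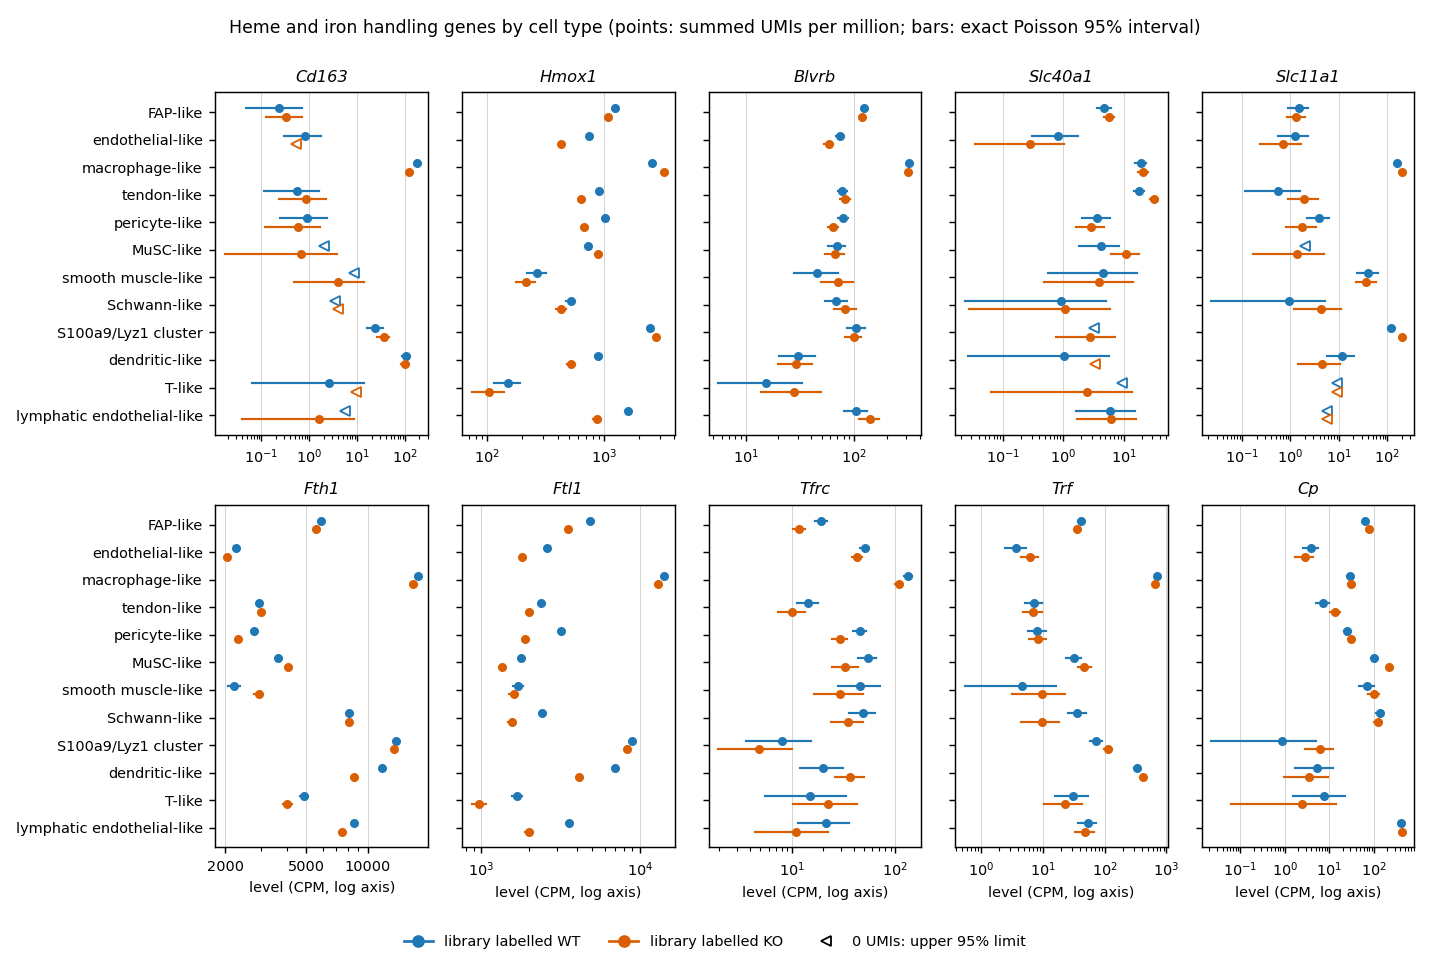
Level of each of the 10 genes (CPM, log axis) in 12 cell groups, blue for the library labelled WT and orange for KO, with exact Poisson 95% intervals and open triangles for the upper limit where no UMI was read. Cd163 and Trf were concentrated in macrophage-like cells and a few other leukocyte groups. Slc11a1 was concentrated in macrophage-like cells and the cluster with S100a9 and Lyz1, with a lower level in smooth muscle-like cells. Fth1, Ftl1 and Hmox1 were read in every group.

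Among the genes of uptake, Cd163 was at 178.2 CPM (166.3 to 190.7) in macrophage-like cells in WT and 122.5 (113.7 to 131.9) in KO. Dendritic-like cells followed with 107 CPM in WT and 100.6 in KO, and the cluster with S100a9 and Lyz1 came next with 24 and 35.6. In FAP-like cells Cd163 was at 0.2355 CPM in WT and 0.3307 in KO. The scavenger receptor was thus read mainly in 3 leukocyte groups, and stayed at or below 3.91 CPM in the other 9. With each cell thinned to 1000 UMIs, 12.7% of macrophage-like cells in WT and 8.67% in KO had a Cd163 UMI, against 0% and 0.0935% of FAP-like cells. Before thinning these were 22.7% and 17.9%, and 0.179% and 0.232% of FAP-like cells. The median depth was 5245 UMIs in WT and 5345.5 in KO for macrophage-like cells, and 7441 and 8238 for FAP-like cells. Thinning left out 82 macrophage-like cells in WT and 96 in KO.

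Tfrc, the transferrin receptor, was at 132.1 CPM (121.9 to 143.0) in macrophage-like cells in WT and 107.1 (98.8 to 115.9) in KO. In WT the next groups were MuSC-like cells at 53.8 CPM and endothelial-like cells at 50.4, which did not differ beyond their intervals. Its lowest level was 8.01 CPM in WT and 4.89 in KO, in the cluster with S100a9 and Lyz1. In that cluster it rested on 9 and 7 UMIs, and in T-like cells on 6 and 9, levels that were not told apart from free RNA. Of 11 neighbouring pairs in the order of its WT levels, 2 stood apart. Trf, the iron carrier itself, was at 709.8 CPM (685.8 to 734.4) in macrophage-like cells in WT and 657.1 (636.3 to 678.3) in KO. Dendritic-like cells had 334.7 and 416.6 CPM, and endothelial-like cells were lowest in both libraries at 3.691 and 6.119. After thinning, 46.9% of macrophage-like cells had a Trf UMI in each library.

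Hmox1, the heme-degrading oxygenase, was read in every group. It was at 2556 CPM (2511 to 2602) in macrophage-like cells in WT and 3269 (3222 to 3316) in KO. The cluster with S100a9 and Lyz1 came next, at 2489 CPM (2397 to 2583) in WT and 2801 (2715 to 2889) in KO. In WT the intervals of these 2 groups overlapped, and in KO they did not. Among cells that are not leukocytes, FAP-like cells had 1235 CPM in WT and 1077 in KO, and lymphatic endothelial-like cells 1598 and 868.8. T-like cells were lowest at 149.4 and 102.8. Blvrb, the reductase, was also read in every group. Macrophage-like cells were at 320.8 CPM (304.8 to 337.5) in WT and 314.1 (299.8 to 328.9) in KO, and T-like cells at 15.19 and 27.57. The median of the 12 groups for Blvrb was 75.44 CPM in WT and 76.33 in KO, and 1 and 2 of 11 neighbouring pairs stood apart.

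Ferritin RNA was abundant everywhere. Fth1 was at 17610 CPM in macrophage-like cells in WT and 16660 in KO, with a median over the 12 groups of 5397 and 4807. Ftl1 was at 14350 and 13110 CPM in macrophage-like cells, with medians of 2896 and 1933. The same cluster with S100a9 and Lyz1 was second for both chains, with 13730 and 13490 CPM of Fth1 and 8895 and 8352 of Ftl1. Both ferritins have near-identical copies elsewhere in the genome, so the split of their reads is uncertain. The copy Ftl1-ps1, which the table lists on its own, had 166.0 CPM in WT and 164.5 in KO in macrophage-like cells, a small part of the Ftl1 level there.

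Slc40a1, the only known iron exporter of animal cells, was read at low levels. Macrophage-like cells had 19.28 CPM (15.5 to 23.69) in WT and 21.0 (17.42 to 25.09) in KO, from 90 and 121 UMIs. Tendon-like cells had 18.22 CPM in WT, which overlapped with macrophage-like cells, and 31.94 in KO, from 99 and 150 UMIs. These UMIs were spread over 73 and 92 tendon-like cells, and the cell with the most held 4 and 10 of them. Slc11a1, in contrast, was concentrated in a few groups. It was at 157.6 CPM (146.5 to 169.4) in macrophage-like cells in WT and 198 (186.7 to 209.9) in KO, at 121.1 and 205.3 in the cluster with S100a9 and Lyz1, and at 1.49 and 1.323 in FAP-like cells. In WT the intervals of the first 2 groups did not overlap, and in KO they did. Smooth muscle-like cells ranked after these 2, at 41.02 CPM (24.31 to 64.82) in WT and 37.16 (22.38 to 58.04) in KO, from 18 and 19 UMIs.

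Cp, the secreted or membrane-anchored ferroxidase, had a pattern of its own. It was at 418 CPM in lymphatic endothelial-like cells in WT and 446.1 in KO, and a Cp UMI was read in 36.8% and 33.3% of these cells after thinning. Ordinary endothelial-like cells had 3.8 and 2.8 CPM, and 0.348% and 0.432% of them had a UMI. Schwann-like cells had 137.1 and 122.3 CPM and MuSC-like cells 99.6 and 218.5, while macrophage-like cells had 29.6 and 30.2. FAP-like cells were at 63.6 CPM in WT and 77.3 in KO and held 41.7% and 50.4% of all Cp UMIs. They were the most numerous group, and their share of all cells was also larger in KO, 26.3% in WT and 30.4% in KO.

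The 3 genes most like each member across the 12 groups and both libraries were taken by Pearson's r of log2(CPM + 10), for members at least 4-fold above the median group where they were highest. The r is a description over 24 points that share 2 libraries. For Cd163, 197-fold above the median group, they were Aif1 (r = 0.988), Clec10a (0.985) and Scimp (0.973). For Trf they were Aif1 (0.913), Cd163 itself (0.912) and Pepd (0.899), and for Slc11a1 Apobec1 (0.944), F13a1 (0.925) and Slc16a7 (0.923). The nearest to Ftl1 was its copy Ftl1-ps1 (0.977), before Psap (0.914) and Renbp (0.911). Blvrb lay closest to Abca1 (0.882), Rgl1 (0.878) and Rab1a (0.869), Slc40a1 to Rad51b (0.871), Rnf180 (0.843) and Fmn1 (0.821), and Cp to Stt3b (0.869), Ccdc136 (0.851) and Zfpm2 (0.845). Hmox1, Fth1 and Tfrc did not reach 4-fold.

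The macrophage-like cells were then divided into 7 groups, again without the 10 genes. The resident-like group (200 cells in WT, 213 in KO) carried Lyve1, Folr2 and Timd4, and the Trem2-like group (70 and 76) carried Trem2 and Gpnmb. The inflammatory-like group had 244 and 320 cells. The other 4 kept the name of their leading gene: Tulp3 (145 and 166 cells, with heat-shock and Fos genes), Hbb-bt (126 and 175 cells, shallow), Col3a1 (45 and 54) and Ifit3 (21 and 26). Hemoglobin RNA in the group led by Hbb-bt was high in KO only, at 132.3 CPM in WT and 15480 in KO. The groups led by Col3a1 and Ifit3 were too small or too mixed to describe alone.

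Cd163 marked the resident-like group most steeply. It was at 580.9 CPM (535.0 to 629.6) there in WT and 388.0 (352.0 to 426.7) in KO, and at 10.34 (4.157 to 21.3) and 7.828 (2.873 to 17.04) in the Trem2-like group, from 7 and 6 UMIs. The group led by Hbb-bt was between them, at 241.2 and 239.1, and so was the inflammatory-like group, at 35.49 and 54.47. Within the resident-like group, 33.8% of cells thinned to 1000 UMIs had a Cd163 UMI in WT (27.3% to 40.9%) and 20.7% in KO (15.4% to 26.7%). Unthinned shares were 56.5% and 40.4%, with median depths of 4851 and 5068 UMIs. One KO cell held 33 of the 425 UMIs, or 7.76%, and without it the KO level was 360.6 CPM.

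Tfrc and Cp followed the same order at their ends. Tfrc was at 288.5 CPM (256.4 to 323.4) in resident-like cells in WT and 268.4 (238.6 to 300.9) in KO, against 20.68 (11.3 to 34.69) and 9.133 (3.672 to 18.82) in Trem2-like cells. Its level in the group led by Hbb-bt, 521.4 and 457.9 CPM, was higher still, and immature red cells are known for their high Tfrc. The hemoglobin genes together made up 132.3 CPM of that group in WT and 15480 in KO, and their part in its Tfrc level was not tested. Cp was at 80.46 CPM (63.99 to 99.87) and 75.78 (60.36 to 93.94) in resident-like cells and rested on 1 and 5 UMIs in Trem2-like cells. Few cells had UMIs of both Cd163 and Tfrc: 8.08% of thinned resident-like cells in WT and 5.16% in KO.

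The ferritins ran the other way. Fth1 was at 10200 CPM in resident-like cells in WT and 10520 in KO, at 22980 and 19850 in inflammatory-like cells and at 27200 and 28360 in Trem2-like cells, the highest of the 5 groups described. Ftl1 was at 10600 and 10590 CPM in resident-like cells and at 21080 and 20750 in Trem2-like cells. The lowest Ftl1 level of the 5 groups was in the group led by Hbb-bt, 7128 CPM in WT and 8313 in KO. Slc11a1 was likewise lower in resident-like cells (125.6 and 140.6 CPM) than in Trem2-like cells (249.6 and 362.7). Among the 5 groups, the RNA of Fth1, Ftl1 and Slc11a1 was highest in the group where that of Cd163 and Tfrc was lowest.

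**Figure D2:**
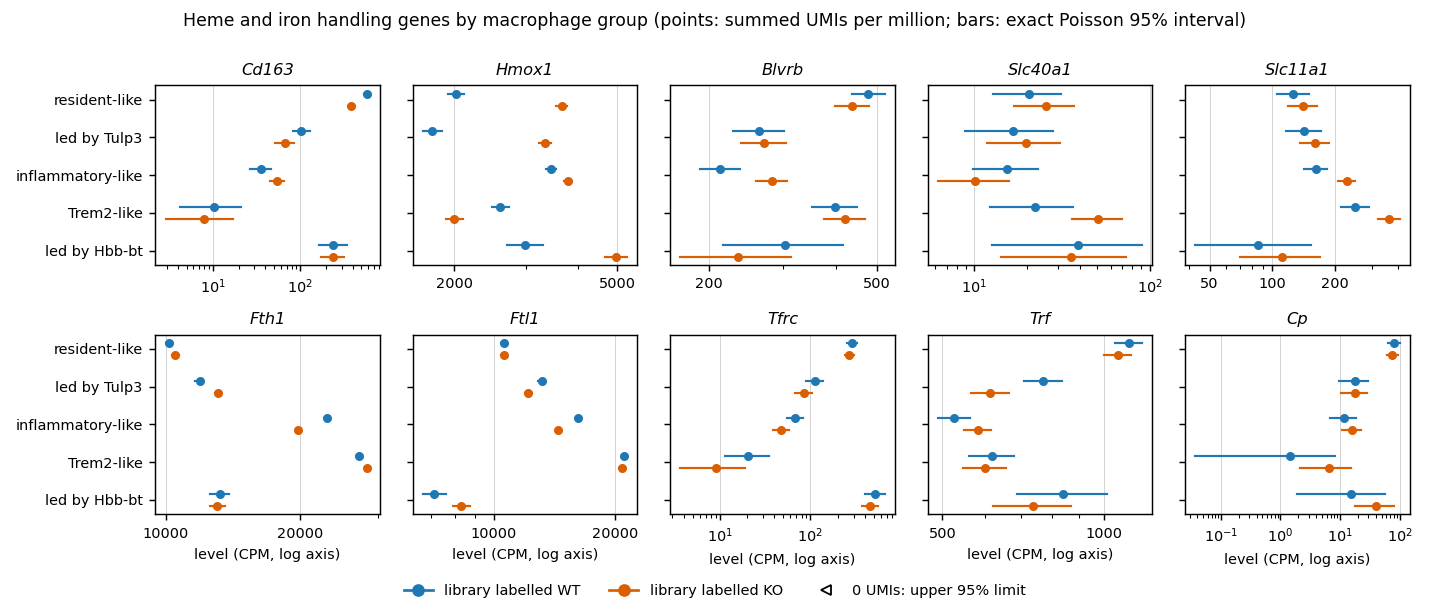
Level of each of the 10 genes (CPM, log axis) in 5 macrophage groups, blue for the library labelled WT and orange for KO, with exact Poisson 95% intervals. Cd163, Tfrc and Cp were high in the resident-like group and low in the Trem2-like group, Fth1 and Ftl1 were the reverse, and Hmox1 was the gene whose libraries lay furthest apart in the resident-like group and in the group led by Tulp3.

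Set against all other macrophage-like cells of the same library, resident-like cells had higher Cd163 by a log2 ratio of 3.14 (2.92 to 3.37) in WT and 2.69 (2.47 to 2.91) in KO. Cp was higher by 2.39 (1.88 to 2.91) and 1.96 (1.51 to 2.40), Tfrc by 1.70 (1.47 to 1.94) and 1.96 (1.72 to 2.19), Trf by 0.90 (0.79 to 1.0) and 0.92 (0.82 to 1.02), and Blvrb by 0.78 (0.62 to 0.94) and 0.61 (0.46 to 0.76). Fth1 was lower in both, at -0.95 (-0.98 to -0.92) and -0.78 (-0.81 to -0.75), and so was Ftl1, at -0.54 and -0.37. For Slc11a1 the ratios were -0.41 (-0.69 to -0.13) and -0.59 (-0.84 to -0.34). Slc40a1 was at 0.12 (-0.66 to 0.85) and 0.36 (-0.31 to 0.98), with 0 inside both intervals. Hmox1 pointed to opposite sides, at -0.42 (-0.49 to -0.36) in WT and 0.20 (0.15 to 0.25) in KO. Without integration of the libraries or with clusters at resolution 1.2 the KO ratio of Hmox1 was below 0 as well, down to -0.21, and that of Cd163 was smaller, between 1.97 and 2.45 over both libraries.

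In WT, 5 of the 10 genes were at least 1.5-fold higher in resident-like cells and 1 at least 1.5-fold lower, and in KO 5 were higher and 2 lower. Of all genes with at least 10 UMIs, 42.5% passed in either direction in WT and 39.5% in KO, so the members' counts stand against a high background. The median ratio of the 10 genes was 0.45 in WT and 0.49 in KO, and that of all genes 0.19 and 0.10. The groups are clusters, so these ratios describe them and test nothing. Of 28 immediate-early and heat-shock genes that tissue dissociation can raise, 14 were at least 1.5-fold higher in resident-like cells and 1 lower in WT, and 5 higher and 2 lower in KO; their part in the ratios was not tested.

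**Figure D3:**
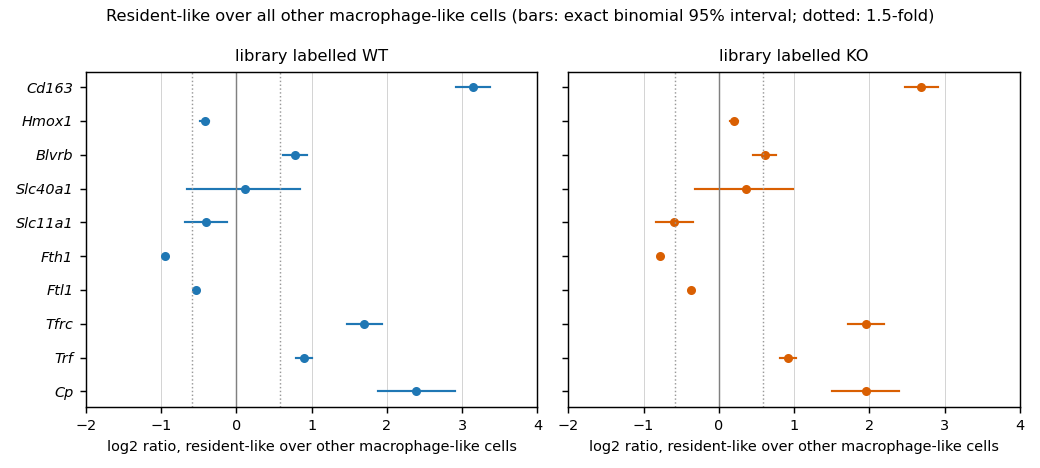
Log2 ratio of resident-like over all other macrophage-like cells for each of the 10 genes, with the library labelled WT on the left and KO on the right, exact binomial 95% intervals and dotted lines at 1.5-fold. Cd163, Cp, Tfrc, Trf and Blvrb lay right of the line in both libraries and Fth1 left of it, while Hmox1 was at -0.42 in WT and 0.20 in KO, a KO value that was below 0 without integration and at resolution 1.2.

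A further 64 genes of heme and iron metabolism were listed by role, of which 61 were in the table. In the same comparison, 9 of 44 with enough UMIs were at least 1.5-fold higher in resident-like cells and 11 lower in WT, and 8 of 45 higher and 11 lower in KO. These are 45.5% and 42.2%, against 42.5% and 39.5% of all genes, so the list as a whole stood near the background, and the genes named next are descriptions of single genes within it. Among the lower genes were targets of NRF2, the oxidant-response factor that also acts on Hmox1: 6 of 7 were lower in each library, with a median ratio of -1.21 in WT and -0.80 in KO. Slc7a11, the cystine importer, was at -4.95 and -4.06, and Srxn1, sulfiredoxin, at -2.97 and -1.26. Higher in resident-like cells were Bmp2 (1.38 and 1.82), a ligand of the pathway that regulates hepcidin, Ncoa4 (1.64 and 1.04), the receptor that sends ferritin to the lysosome, and Slc25a37 (0.98 and 1.18), a mitochondrial iron importer.

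Macrophage-like cells were also the highest of the 12 groups for some genes of that list. Slc11a2, a proton-coupled iron transporter, was at 133.2 CPM in WT and 177.4 in KO. Hmox2, the constitutive heme oxygenase, was at 83.32 and 54.32 CPM, Blvra, the main biliverdin reductase, at 58.68 and 53.28, and Bach1, the heme-sensing repressor of Hmox1, at 451.9 and 564.0. Spic, the transcription factor of macrophages that clear red cells, was at 25.92 and 30.2 CPM. Also highest there were Ncoa4, Prdx1, Sqstm1, Alas1, Slc25a28, Slc25a37 and Ftl1-ps1. Ltf also ranked first there, but on 1 UMI in each library, which orders nothing. These ranks follow the mean of the 2 libraries, and for Bach1 and Alas1 the cluster with S100a9 and Lyz1 was within a few CPM.

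KO was then set against WT within each cell type. In macrophage-like cells as a whole none of the 10 genes was past 1.5-fold, where 20.1% of all 12027 genes with at least 10 UMIs were. Cd163 was lower in KO, at -0.54 (-0.69 to -0.39), and Tfrc at -0.30 (-0.47 to -0.14). Hmox1 was higher, at 0.35 (0.32 to 0.39), and so was Slc11a1, at 0.33 (0.19 to 0.46). The other 6 lay between -0.13 and 0.12, and the intervals of Blvrb, Slc40a1 and Cp included 0. How much of each value comes from a change in the mix of macrophages cannot be read from the sum, so the groups were taken apart.

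In resident-like cells 1 of the 10 genes, Hmox1, was past 1.5-fold, where 26.7% of 9190 genes were. Hmox1 was at 2017 CPM (1931 to 2107) in WT and 3658 (3546 to 3773) in KO, a log2 ratio of 0.86 (0.78 to 0.94), which stayed between 0.70 and 0.96 under 10 other settings. It was spread over the cells: 198 of 200 in WT and 210 of 213 in KO had a UMI, and the median cell had 16.3 and 30.6 UMIs per 10000, with quartiles of 8.51 to 26.6 and 15.8 to 50.2. Cd163, at -0.58 (-0.77 to -0.40), fell just short of the threshold. Of the markers that named this group, Lyve1 was at 531.8 CPM in WT and 302.2 in KO, Timd4 at 132.5 and 62.08, and Folr2 at 1519 and 1243. They were chosen after their values were seen, and the other markers of the list, F13a1, Cbr2 and Txnip, are not described here. The remaining 8 of the 10 genes had ratios of 0.31 or less in size.

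The direction of Hmox1 was not shared by all macrophages. It was higher in KO in the group led by Tulp3, 1768 CPM in WT and 3328 in KO (0.91, 0.82 to 1.0), in the group led by Hbb-bt, 2980 and 4966 (0.74, 0.56 to 0.91), and slightly in inflammatory-like cells, 3443 and 3785 (0.14, 0.09 to 0.19). In Trem2-like cells it was lower, 2588 and 2001 CPM (-0.37, -0.47 to -0.27), although the ratio was 0.07 when the heme and iron genes were allowed to place the cells. Slc11a1 was higher in KO in all 5 groups, from 0.16 to 0.54, with an interval above 0 in 2 of them, the inflammatory-like and the Trem2-like. Slc40a1 in Trem2-like cells was at 22.15 CPM in WT and 50.88 in KO (1.2, 0.31 to 2.17), from 15 and 39 UMIs, and its ratio was as low as 0.14 under that same setting. Cd163 was higher in KO in inflammatory-like cells, 35.49 and 54.47 CPM (0.62, 0.14 to 1.11), with 1 WT cell holding 25.5% of the WT UMIs, but lower in KO (-0.46) with groups taken from marker scores. It was lower in the group led by Tulp3, 103.3 and 67.27 (-0.62, -1.11 to -0.13).

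**Figure D4:**
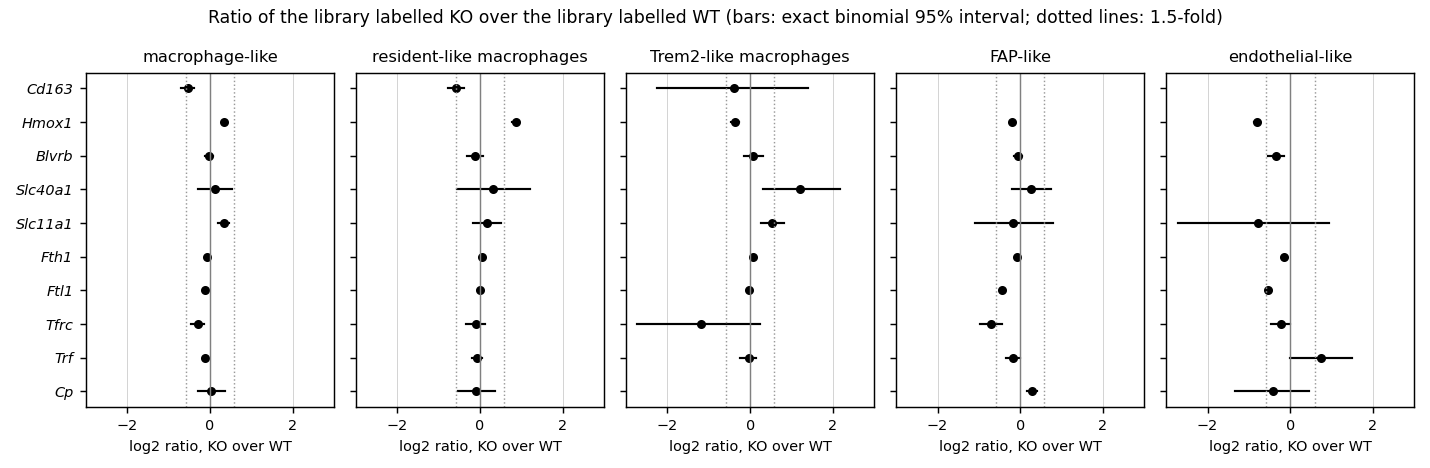
Log2 ratio of the library labelled KO over the library labelled WT for each of the 10 genes in macrophage-like, resident-like, Trem2-like, FAP-like and endothelial-like cells, with exact binomial 95% intervals and dotted lines at 1.5-fold; genes with fewer than 10 UMIs are not drawn. Hmox1 was at 0.86 in resident-like cells and at -0.80 in endothelial-like cells.

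Outside macrophages Hmox1 was mostly lower in KO: 9 of the 11 other cell types had a ratio below 0, with an interval below 0 in 7, and 2 had an interval above 0 (MuSC-like and the cluster with S100a9 and Lyz1). In endothelial-like cells it was at 741.6 CPM (722 to 761.6) in WT and 425.3 (410.2 to 440.8) in KO, a ratio of -0.80 (-0.87 to -0.74). Of 1171 and 1179 such cells, 582 and 546 had a UMI, and the highest cell held 2.49% and 2.81% of the UMIs. In lymphatic endothelial-like cells the ratio was -0.88 (-1.03 to -0.73), and there 1 KO cell held 32.1% of the UMIs. Dendritic-like cells were at -0.76 (-0.92 to -0.61), pericyte-like at -0.58 (-0.65 to -0.52) and FAP-like at -0.20 (-0.23 to -0.17). Over all cells the opposite directions nearly cancelled, at -0.06 (-0.07 to -0.04).

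Ftl1 was lower in KO in 12 of 12 cell types, with an interval below 0 in 11, and its ratios ran from -0.84 to -0.09. FAP-like cells had 4826 CPM in WT and 3525 in KO (-0.45, -0.47 to -0.44), pericyte-like cells 3194 and 1881 (-0.76, -0.80 to -0.73) and T-like cells 1678 and 962.4 (-0.80, -0.99 to -0.62). In macrophage-like cells the difference was small, -0.13 (-0.14 to -0.11). Fth1 showed no such shift: 8 types were below 0 and 4 at or above it, from -0.45 in dendritic-like to 0.41 in smooth muscle-like cells. As a result the number of Fth1 UMIs per Ftl1 UMI was higher in KO in each of the 12 types. It went from 1.23 to 1.58 in FAP-like cells, from 0.872 to 1.12 in endothelial-like cells and from 3.32 to 5.18 in Schwann-like cells, but only from 1.23 to 1.27 in macrophage-like cells. In resident-like macrophages it was 0.963 (0.937 to 0.989) in WT and 0.994 (0.968 to 1.02) in KO. The macrophage groups did not all share the direction. The number was lower in KO in inflammatory-like cells, 1.42 (1.4 to 1.44) in WT and 1.38 (1.36 to 1.4) in KO. It was also lower in the group led by Hbb-bt, 1.85 (1.71 to 2.01) and 1.57 (1.48 to 1.68). The copy Ftl1-ps1 was at 45.07 CPM in WT and 39.25 in KO in FAP-like cells, 0.934% and 1.11% of the Ftl1 UMIs there. The part of read assignment between the copies in the Ftl1 ratios was not tested.

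**Figure D5:**
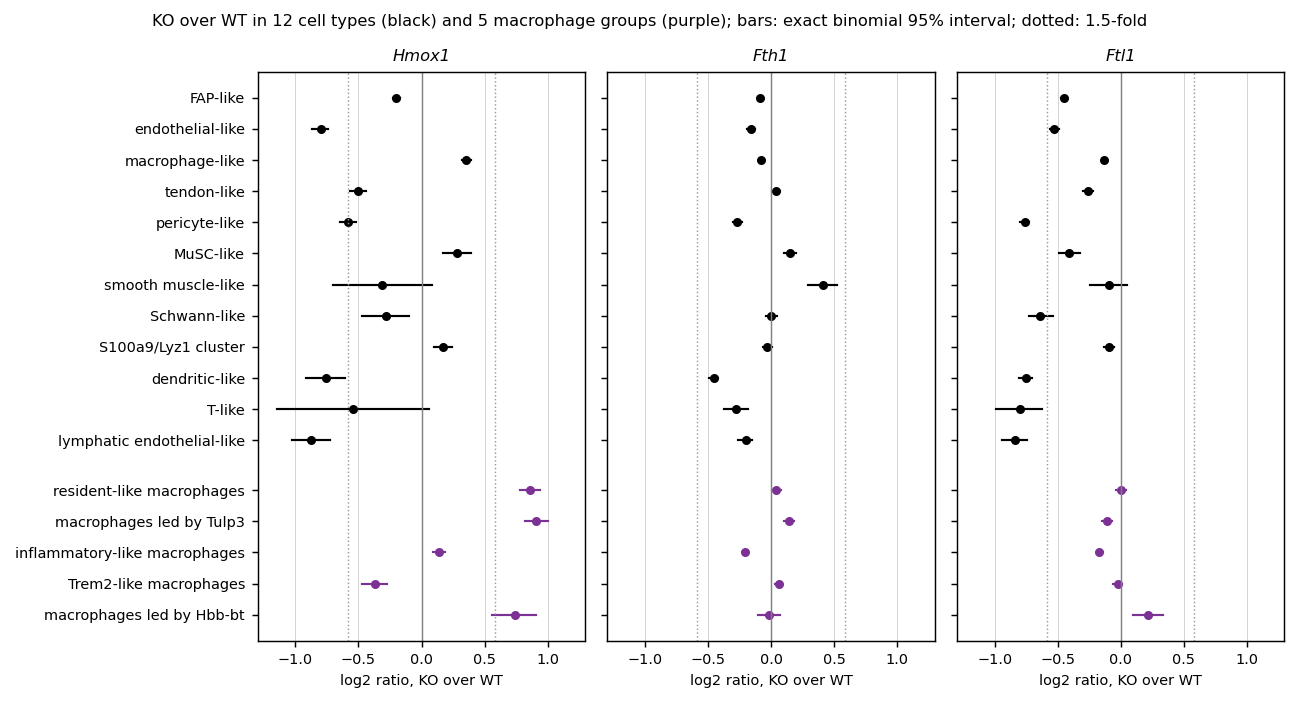
Log2 ratio of the library labelled KO over WT for Hmox1, Fth1 and Ftl1 in 12 cell types (black) and 5 macrophage groups (purple), with exact binomial 95% intervals and dotted lines at 1.5-fold. Ftl1 was below 0 in all 12 cell types, Fth1 was scattered around 0, and Hmox1 was above 0 in 4 of 5 macrophage groups and below 0 in 9 of 12 cell types.

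In FAP-like cells 1 of 9 genes with at least 10 UMIs was past 1.5-fold, where 17.3% of 14058 genes were. It was Tfrc, at 19.2 CPM in WT and 11.8 in KO (-0.71, -0.98 to -0.44), or -0.57 as a mean over cells, which is short of the threshold. Tfrc was lower in KO in 10 of the 12 types, with an interval below 0 in 5, and MuSC-like cells had the same ratio, -0.71 (-1.24 to -0.20), with 53.8 and 32.9 CPM. Dendritic-like cells were at 0.88 (0.07 to 1.75) from 19 and 41 UMIs, but 1 KO cell held 23 of the 41 (56.1%), and without it the KO level was 16.27 CPM, below the 19.93 of WT. In endothelial-like cells 3 of 8 genes were past 1.5-fold, where 15.3% of 12576 genes were: Hmox1, Slc11a1 and Trf. For Slc11a1 (-0.79, -2.72 to 0.94) this rested on 9 and 5 UMIs, and for Trf (0.73, 0.00 to 1.48) on 27 and 43.

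Cp was higher in KO in 8 of 10 cell types with enough UMIs, with an interval above 0 in 3. MuSC-like cells had 99.6 CPM in WT and 218.5 in KO (1.13, 0.87 to 1.40), from 185 UMIs in 100 cells and 319 in 143 cells. After thinning, 10.3% and 16.0% of MuSC-like cells had a Cp UMI. Tendon-like cells had 7.2 and 13.4 CPM (0.90, 0.30 to 1.52) and FAP-like cells 63.6 and 77.3 (0.28, 0.16 to 0.41). Tendon-like cells also had more Slc40a1 in KO, 0.81 (0.43 to 1.19), so both export genes were higher in that group. The same held in MuSC-like cells, where Slc40a1 was at 1.35 (0.04 to 2.78), from only 8 UMIs in WT and 16 in KO. Of 4 cell types other than macrophage with enough Slc40a1 UMIs, 3 were higher in KO and 1 lower. In lymphatic endothelial-like cells, where Cp was highest, its ratio was 0.09 (-0.15 to 0.34).

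The listed iron genes were set against the same background. In macrophage-like cells 7 of 47 were at least 1.5-fold higher in KO and 5 lower, together 25.5% against 20.1% of all genes, with a median of 0.09 against -0.03. With at least 50 UMIs they were Srxn1 (155.9 CPM in WT, 260.8 in KO; 0.74, 0.61 to 0.87), the iron importer Slc39a14 (22.27 and 36.27; 0.70), the metalloreductase Steap4 (0.92), the ferritin receptor Scara5 (0.84) and the iron sensor Fbxl5 (0.61) on the higher side. Hmox2 (83.32 and 54.32 CPM; -0.62, -0.84 to -0.40) and Keap1, the inhibitor of NRF2 (-0.93, -1.3 to -0.57), were on the lower side. Hmox2 thus differed in the direction opposite to Hmox1. Steap4 and Scara5 had their highest levels outside macrophages, Steap4 in smooth muscle-like and Scara5 in FAP-like cells. In resident-like cells Srxn1 was at 24.53 and 122.3 CPM (2.32, 1.69 to 3.0). Not all listed targets of NRF2 were higher in KO. In macrophage-like cells Gclm was at -0.36 (-0.54 to -0.17) and Gclc at -0.29 (-0.48 to -0.10). In resident-like cells Gclm was at 0.42 (-0.20 to 1.05) and Gclc at -0.12 (-0.59 to 0.34). The activity of NRF2 was not tested. In FAP-like cells 4 of 55 were higher and 3 lower, together 12.7% against 17.3% of all genes, among them Hp, haptoglobin, which rested on 6 and 54 UMIs (2.66, 1.44 to 4.17), Slc7a11 (-0.76), Alad of heme synthesis (-0.76) and Nqo1 (-0.79, -1.66 to 0.05).

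Traces of red cells and of dissociation also differed between the libraries. Summed hemoglobin RNA was 68.23 CPM in WT and 576.3 in KO in FAP-like cells, 1333 and 5524 in endothelial-like cells, 333 and 598 in macrophage-like cells, and 43.17 and 56.6 in resident-like cells. The direction was not the same in every group. Hemoglobin RNA was lower in KO in pericyte-like cells, 2682 CPM in WT and 2112 in KO, and in inflammatory-like macrophages, 913.1 and 45.81. Of the 28 immediate-early and heat-shock genes, 15 were at least 1.5-fold higher in KO and none lower in FAP-like cells, 8 and 1 in endothelial-like, 9 and 1 in macrophage-like, and 5 and 5 in resident-like cells. With cells of 0.1% or more hemoglobin UMIs left out, the Hmox1 ratio was below 0 in endothelial-like cells and above 0 in macrophage-like cells. That setting drops whole cells and does not remove hemoglobin RNA from the cells that stay. The part of hemoglobin RNA or of the stress genes in the ratios of the 10 genes was not tested.

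A core of the antioxidant-response element (TGAC, any 3 bases, then GC, on either strand) was searched in promoter windows from 250 bases before to 50 after the transcription start (RefSeq, GRCm38). It was in 0 of 11 windows of the 7 members with a window and in 12.4% of all 32851 windows. Hmox1, Slc40a1 and Trf had no window. The letters being absent from so short a window says nothing of the factor.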

How the data were processed

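The authors made single-cell libraries with the 10x Genomics platform, counted them with Cell Ranger (2.1.1 on mm10 per the submitters' processing notes; the study's methods name a later release), removed doublets and cells with over 10% mitochondrial RNA, and deposited 1 table of values on a natural log scale: ln(1 + x), with x the UMIs of a gene scaled to 10000 per cell. Barcode endings name the library. UMIs were recovered by inverting this scale and taking the step of 1 UMI in every cell. All 29528482 non-zero values came out within 0.256 of a whole UMI, and the recovery had been checked on simulated cells. The libraries hold 44758516 UMIs (WT) and 50930008 (KO), and 686 and 633 cells under 1000 UMIs were kept.

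Cells were clustered on 2000 variable genes, without the 10 members and the iron list. Clustering took 30 principal components, Harmony, 20 neighbours and Louvain resolution 0.8 (macrophages: 20 components, resolution 0.4). Clusters were named from marker lists. The rules for naming clusters were set after the clusters had been seen. UMIs were summed per group and library. A ratio needed at least 10 UMIs over both libraries. Doublets were not removed again: Scrublet called 101 cells (1.59%) in WT and 109 (1.54%) in KO, which were kept. No count test was run, since each genotype has 1 library.

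The members and lists were chosen with earlier results of these data known. Named beside the members are genes of the 64-gene iron list past 1.5-fold with at least 50 UMIs in macrophage-like or FAP-like cells, those highest in macrophage-like cells, and the 3 genes most like each member that was at least 4-fold above the median group (over 13379 genes with at least 100 UMIs); genes named for resident-like cells were chosen after their values were seen. Alternatives tried were no integration, other resolutions, the members allowed in clustering, groups from marker scores, Scrublet calls or cells under 1000 UMIs left out, a mean over cells, 10 CPM added, 50 UMIs as the minimum, a lower fold threshold and, chosen after seeing the data, macrophage groups or hemoglobin-rich cells left out, and all ratios within macrophage groups under the same settings. Clustering used igraph 0.11.9, scikit-learn 1.9.0 and numpy 2.4.6, and Scrublet was run through scanpy 1.11.5. Intervals used scipy 1.17.1 with numpy, and figures matplotlib 3.10.9, all under Python 3.11.15.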

Additional observations from a re-analysis of the deposited data

Results flagged for a closer look

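Hmox1 pointed to opposite sides in 4 pairs of comparisons with intervals that excluded 0, and in none of them was the difference itself tested, since each genotype has 1 library. Resident-like over other macrophage-like cells was at 0.20 in KO and -0.42 in WT, a difference of 0.62 on the log2 scale; the KO value was below 0 under 2 of 10 other settings, as given below. KO over WT was at 0.35 in macrophage-like and -0.20 in FAP-like cells, which differ by 0.55, and at -0.80 in endothelial-like cells, which differ from macrophage-like cells by 1.15. Within macrophages, KO over WT was at 0.86 in resident-like and -0.37 in Trem2-like cells, a difference of 1.23; the Trem2-like value was 0.07 under 1 other setting.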

How the results depend on the processing

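No paired analysis was possible because each genotype has 1 library, and leaving out a replicate was not possible for the same reason. None of the recomputed ratios past 1.5-fold by cell type, or of resident-like over other macrophage-like cells, changed sign under any alternative run. Ratios in the cluster with S100a9 and Lyz1 were not recomputed. Ratios of KO over WT within macrophage groups were recomputed after seeing the data: Hmox1 in resident-like cells stayed between 0.70 and 0.96 and Cd163 there between -0.72 and -0.37, while in Trem2-like cells Hmox1 ran from -0.45 to 0.07 and Slc40a1 from 0.14 to 1.47. Cd163 in inflammatory-like cells (0.62) was at -0.46 with groups from marker scores and 1.74 with macrophage groups at resolution 0.8, and that group was not found under the 4 other clusterings. The groups led by Tulp3 and Hbb-bt were not recomputed. Of the 10 genes in macrophage-like cells, 0 were past the threshold, and 3 at the lower threshold tried. Of the genes in FAP-like cells 1 was, and 0 with 10 CPM added, 2 at the lower threshold, 2 at resolution 0.4 and 0 with a mean over cells. Cd163 in resident-like over other macrophage-like cells (3.14 in WT, 2.69 in KO) was at 2.45 and 2.05 without integration, 2.31 and 1.97 at resolution 1.2 and 2.58 and 1.83 with a mean over cells. Fth1 in the same comparison (-0.95 and -0.78) was at -1.0 and -0.84 without integration, -0.89 and -0.74 at resolution 0.4, -0.99 and -0.82 at resolution 1.2, -0.99 and -0.85 without Scrublet calls, -0.76 and -0.72 with a mean over cells, -1.03 and -0.90 with macrophage groups at resolution 0.8, -1.01 and -0.94 with groups from marker scores, and -1.02 and -0.89 without the groups led by Hbb-bt and Col3a1. The cause of these shifts was not tested. The KO ratio of Hmox1 in that comparison ranged from -0.21 to 0.22 and kept its sign in 8 of 10 alternatives, all but no integration and resolution 1.2. Hmox1 in KO over WT stayed between 0.26 and 0.56 in macrophage-like cells, between -1.03 and -0.78 in endothelial-like cells and between -0.20 and -0.12 in FAP-like cells. Of 26 KO over WT ratios past 1.5-fold across cell types other than the cluster with S100a9 and Lyz1, 17 remained so with a mean over cells. The number of resident-like cells moved from 138 to 327 in WT and from 131 to 295 in KO, and that of Trem2-like cells from 70 to 326 and from 76 to 420. Depth limits Slc40a1 most, with 90 and 121 UMIs in macrophage-like cells.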
